A study of Mus musculus with 15 samples.

Results

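The genes described here are 34 immediate early and cell dissociation response genes, chosen by name with earlier results of these data known. All 34 were found among the 55486 genes of the count table, and all 34 were among the 14843 genes that passed the filter on low counts. They were read in 15 bulk RNA-seq libraries of macrophages that had been purified by FACS from mouse brain tumours. Every group shared the genotype Ink4a/ArfKO, PDGFB, that is, loss of the Ink4a/Arf tumour suppressor locus and tumours driven by the growth factor PDGFB. The groups were lipid-laden monocyte-derived macrophages (MDM, 3 libraries), MDM without lipid load (4 libraries), lipid-laden microglia (4 libraries) and microglia without lipid load (4 libraries). Microglia are the resident macrophages of the brain, and MDM enter the tumour from the blood. The sources used here do not give the age or sex of the mice, the vector that carried PDGFB, the stain that defined lipid load or how the tumours were dissociated. No untumoured brain and no undissociated tissue was measured, so all 4 groups had passed through tumour growth, dissociation and sorting. Titles carry the numbers 221, 224, 431 and 718, which recur across groups, and whether a number stands for 1 animal is not said. P-values therefore measure the spread between these libraries. Number 431 enters here with 3 groups, without lipid-laden MDM.

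Immediate early genes are transcribed within minutes of a stimulus from factors that are already present in the cell, and their short-lived mRNAs decay soon after. FOS and JUN family proteins pair to form AP-1, EGR and KLF proteins are zinc finger transcription factors, and a further set of early genes encodes brakes on the same signals: IκB proteins and A20 on NF-κB, dual specificity phosphatases on MAP kinases, tristetraprolin on unstable mRNAs and SOCS3 on cytokine receptors. Heat shock genes are switched on by HSF1 when proteins misfold. In microglia and other brain cells this whole set is known to be induced when tissue is digested into single cells, and it is also induced in living tissue by injury, inflammation and growth factors. A bulk library cannot tell these apart, nor fewer responding cells from less RNA per cell.

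Promoters of some of these genes are given first, since the same few response elements are the textbook route from a signal to these genes. RefSeq start sites on GRCm38.p6 gave 36 windows of 250 bases before a start for 28 of the 34 genes. Egr1, Egr3, Nfkbiz, Ier2, Myc and Cebpd had no entry. Windows are written 5′ to 3′ on the strand of the gene, and capitals mark a match to a motif on either strand. The motifs were the AP-1 site (TGANTCA), the cAMP response element (CRE, TGACGTCA), the heat shock element (alternating TTC and GAA triplets, each pair separated by any 2 bases), the NF-κB site and the CArG box bound by SRF. All windows printed here hold a match, and not all belong to genes called below. Windows of other genes, those of Rhob and Btg1 among them, held none of these motifs. Btg2 (chr1:134079156-134079405, minus strand, CRE in capitals), Zfp36 (chr7:28379229-28379478, minus strand, CArG box), Fosl2 (chr5:32136222-32136471, plus strand, 2 overlapping NF-κB matches), Nfkbia (chr12:55492648-55492897, minus strand, NF-κB site), Tnfaip3 (chr10:19015411-19015660, minus strand, an AP-1 site and then 2 NF-κB sites) and Egr2 (chr10:67537619-67537868, plus strand, CArG box) had these letters.
Btg2: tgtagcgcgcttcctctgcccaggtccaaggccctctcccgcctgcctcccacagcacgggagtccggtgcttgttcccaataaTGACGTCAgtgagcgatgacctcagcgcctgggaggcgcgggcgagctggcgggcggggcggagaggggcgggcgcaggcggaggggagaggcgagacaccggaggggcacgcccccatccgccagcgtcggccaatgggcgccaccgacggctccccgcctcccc
Zfp36: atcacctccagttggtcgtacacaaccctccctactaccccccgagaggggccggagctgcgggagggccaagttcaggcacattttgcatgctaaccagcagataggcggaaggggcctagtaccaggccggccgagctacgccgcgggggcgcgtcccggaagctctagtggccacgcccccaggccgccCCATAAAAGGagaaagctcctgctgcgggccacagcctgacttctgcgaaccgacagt
Fosl2: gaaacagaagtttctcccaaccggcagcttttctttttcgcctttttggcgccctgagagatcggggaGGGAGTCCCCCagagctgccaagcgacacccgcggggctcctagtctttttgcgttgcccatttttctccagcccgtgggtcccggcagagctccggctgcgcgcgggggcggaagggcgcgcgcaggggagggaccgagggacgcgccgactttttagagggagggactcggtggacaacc
Nfkbia: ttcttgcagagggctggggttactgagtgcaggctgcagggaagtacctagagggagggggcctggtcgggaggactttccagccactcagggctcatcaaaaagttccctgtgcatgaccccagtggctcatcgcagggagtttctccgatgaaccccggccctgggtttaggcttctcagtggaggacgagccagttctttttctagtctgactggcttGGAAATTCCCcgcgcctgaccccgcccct
Tnfaip3: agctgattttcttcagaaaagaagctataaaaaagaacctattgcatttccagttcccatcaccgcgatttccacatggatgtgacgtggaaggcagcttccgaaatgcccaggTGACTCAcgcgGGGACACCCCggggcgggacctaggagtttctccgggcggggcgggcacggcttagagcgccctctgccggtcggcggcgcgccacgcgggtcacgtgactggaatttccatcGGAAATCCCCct
Egr2: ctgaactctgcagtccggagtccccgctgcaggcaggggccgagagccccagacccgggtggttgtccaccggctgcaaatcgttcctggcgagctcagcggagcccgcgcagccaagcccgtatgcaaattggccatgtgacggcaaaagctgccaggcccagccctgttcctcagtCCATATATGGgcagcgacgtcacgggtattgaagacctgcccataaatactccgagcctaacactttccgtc
An NF-κB match stood in 7 of the 36 windows (Fos, Fosb, Fosl2, Ier3, Maff, Nfkbia and Tnfaip3), against 3.9% of 32851 windows of all genes. A CArG match stood in 5 windows of 2 genes, Egr2 and Zfp36, where 4 overlapping or neighbouring starts of Egr2 count separately, against 1.47% of all windows. The CRE stood in 3 windows (Btg2, Dusp1 and Maff), against 1.55%. The AP-1 site stood in 1 window, that of Tnfaip3, against 6.75%, and the heat shock element in 0, against 0.466%. Only exact matches to the full motif were counted, so imperfect heat shock elements would not be seen. A match is only a run of letters in the window, and binding was not measured.

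The mRNAs were also scanned for the AU-rich heptamer TATTTAT, a hallmark of unstable transcripts. It stood on the sense strand of the longest coding transcript of 18 of the 34 genes (52.9%), against 33.8% of 13012 protein-coding genes tested. Per kilobase there were 0.353 matches in the 34 transcripts and 0.149 in all of them. Median transcript length was 2766.5 bases for the 34 genes and 3145 for all.

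Levels are given in CPM, the counts of a gene over the library total as scaled by TMM, and per kilobase of merged exons where genes are compared. The 34 genes took 1.37% ± 0.331 of all counts in lipid-laden MDM (SD, n = 3), 1.73% ± 0.150 in MDM, 1.29% ± 0.18 in lipid-laden microglia and 1.82% ± 0.278 in microglia (n = 4 each). Over all libraries, the highest levels per kilobase were those of Nfkbia at 727 CPM, Fos at 684, Junb at 548, Ier3 at 538, Dusp1 at 517 and Atf3 at 480. The lowest were Jund at 2.14, Hspa1b at 3.48 and Cebpb at 6.01 CPM per kilobase. By CPM alone, 10 genes held 70.6% of the summed level: Dusp1, Fos, Junb, Egr1, Nfkbia, Klf6, Atf3, Ier2, Btg2 and Zfp36.

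**Figure D1:**
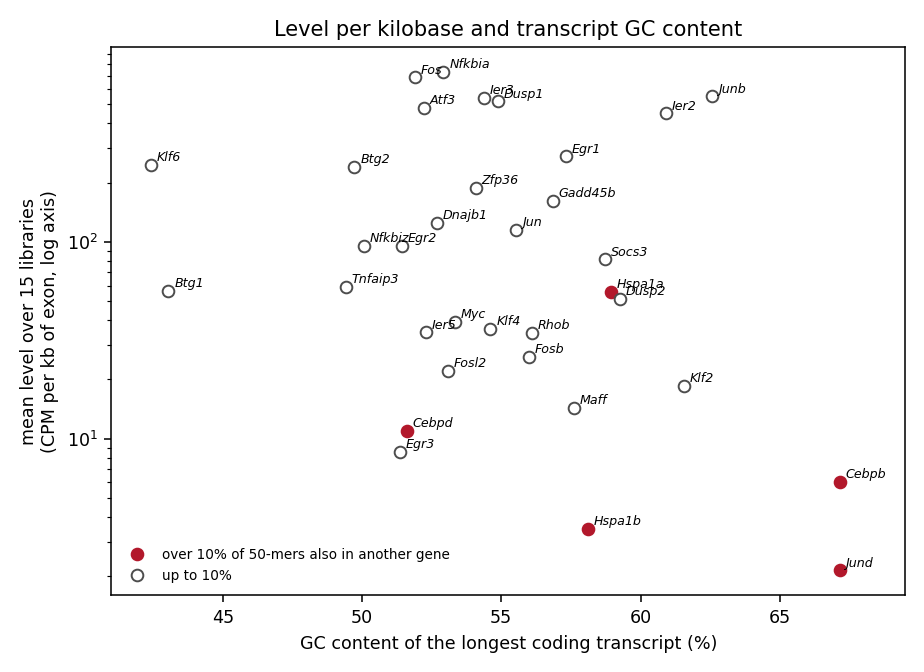
Mean level over 15 libraries (CPM per kilobase of exon, log axis) of the 34 genes against the GC content of the longest coding transcript. Nfkbia at 727 and Fos at 684 stand at the top. Cebpb and Jund, both at 67.15% GC, stand at 6.01 and 2.14, and red points mark genes with over 10% of their 50-base stretches also found in another gene.

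Some of these levels are uncertain. Hspa1a and Hspa1b, neighbouring copies on chromosome 17, share 58.8% of the 50-base stretches of Hspa1a and 62.3% of those of Hspa1b, so their counts could be split between them in either way. Exons of 8 of the 34 genes overlap a gene on the other strand, and the strand setting of the counting is not given in the sources used here. The overlap covers 52.6% of exonic bases in Jund, where the partner Gm11175 had 0 counts in every library, 20.7% in Cebpb (partner Tmem189, 387 to 781 counts per library), 19.0% in Hspa1a (Gm20481, 0 counts) and 15.0% in Cebpd (Spidr, 241 to 883 counts). It covers 7.52% in Junb, 7.28% in Jun, 3.60% in Zfp36 and 0.332% in Dusp1. Cebpb and Jund also have the highest GC content of the 34, at rank 12 and 13 of the 13012 coding genes tested. Whether overlap, GC content or abundance sets their low counts was not tested.

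Libraries of number 221 stood low before any comparison was made. The summed level of the 34 genes was 10382 CPM in the lipid-laden MDM library of number 221, 15788 in its MDM library, 10632 in its lipid-laden microglial library and 15197 in its microglial library, each the lowest of its group. The highest of each group was number 224, at 17556, 19746, 15166 and 20473 CPM in the same order of groups. Library totals lay between 7798952 and 11419338 counts. Mitochondrial transcripts took 0.477% to 0.725% of counts in lipid-laden MDM, 0.442% to 0.657% in MDM, 0.834% to 1.09% in lipid-laden microglia and 0.643% to 0.986% in microglia. Results are therefore also given without all libraries of number 221 where a call changed.

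Lipid-laden cells had less of the 34 genes in sum than the cells without lipid load in all 7 pairs of libraries with the same number. The ratio of sums was 0.658 to 0.889 over the 3 MDM pairs and 0.660 to 0.782 over the 4 microglial pairs. In microglia all 7 role groups were lower with lipid load in each of the 4 pairs, with the ratio closest to 1 at 0.952 for the NF-κB group of number 224. In MDM the EGR and KLF sum ran the other way, with ratios of 1.06 to 1.30 in the 3 pairs. Its 6 genes did not move together. Egr1 alone was higher in each pair, with a mean of 990 CPM with lipid load and 658 without. Klf4 alone was lower in each pair, at 90.9 and 192 CPM. The AP-1, heat shock, NF-κB, MAPK and cytokine feedback, and IER and BTG sums were below 1 in each pair, at 0.502 to 0.952.

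**Figure D2:**
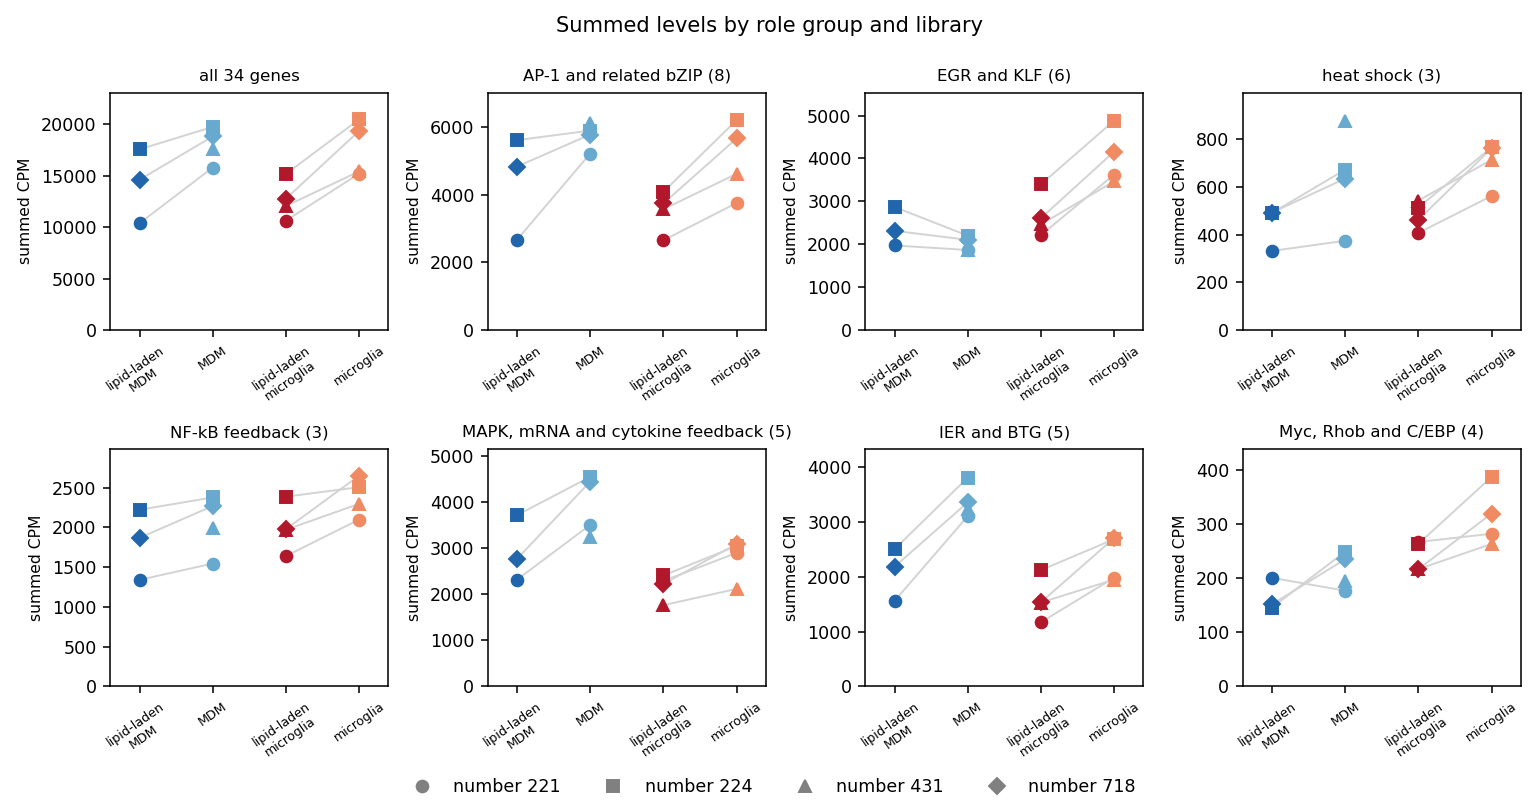
Summed CPM (linear axis from 0) of all 34 genes and of the 7 role groups, 1 point per library, with lipid-laden groups left of the same cells without lipid load and grey lines joining libraries of the same number. All 7 lines of the 34-gene sum rise to the right, and only the EGR and KLF lines of MDM run the other way in all 3 pairs.

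The first question of the design was how lipid-laden microglia differ from microglia without lipid load. No gene of the 34 and none of all 14843 passed an adjusted p of 0.05 in edgeR's quasi-likelihood test (0% called in either direction), nor did any of the 34 with limma-voom, while DESeq2 called 4. Yet 33 of the 34 log2 fold changes were negative, against 51.9% of all genes, and their median was -0.53 against -0.02 for all genes. The exception was Cebpb at 0.30 ± 0.36 (SE). At an unadjusted p under 0.05 there were 16 of the 34, all lower, against 4.97% of all genes lower by that rule. Groups did not overlap for 4 genes that lay below (Btg2, Atf3, Ier2 and Dnajb1), against 2.81% of all genes. In 22 of the 34 every one of the 4 number pairs was lower, against 11.9% of all genes. Same-numbered microglial libraries deviated together, and with the number as a block edgeR called 7 of the 34, all lower, against 0.397% of all genes lower and 0.404% higher. These 7 were Btg2, Zfp36, Ier2, Atf3, Klf6, Nfkbiz and Jun, a growth-arrest gene, an mRNA decay factor, an early nuclear protein and 4 transcription regulators. With all libraries of 1 number left out of that fit there were 0 to 4 calls: 1 without number 221, 4 without 224, 2 without 431 and 0 without 718. Of all 14843 genes 0 to 68 were called in these fits, against 119 in the full block fit. Atf3, Klf6, Nfkbiz and Jun passed in none of these 4 fits, Ier2 in 1, Zfp36 in 2 and Btg2 in 3 (edgeR adjusted p up to 0.362 over the 7).

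The same question in MDM gave 6 calls among the 34 without a block. Btg2, Btg1, Myc, Fosl2 and Maff were lower in lipid-laden MDM and Rhob was higher, that is 5 of 34 lower against 2.96% of all genes and 1 of 34 higher against 5.21%. Of the 34 log2 fold changes 24 were negative, against 47.2% of all genes, and the median was -0.35 against 0.04. Groups did not overlap for 9 genes that lay below (10.7% of all genes) and for Rhob, which lay above (11.1%). Without the libraries of number 221 there were 7 calls: Rhob no longer passed (adjusted p = 0.0562 in edgeR), and Egr1 at 0.74 and Hspa1a at -0.98 now did (adjusted p = 0.0282 and 0.0376 in edgeR). With the number as a block 11 of the 34 were lower and 2 higher, against 621 lower and 908 higher of all 14843 genes. Zfp36, Ier2, Cebpd, Klf4, Dusp2 and Hspa1a were added as lower and Egr1 as higher. Leaving 1 number out under the block gave 4 to 11 calls, and only Btg2, Btg1 and Zfp36 passed in every such fit. Of all genes 456 to 1326 were called in these fits, against 1529 in the full block fit.

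**Figure D3:**
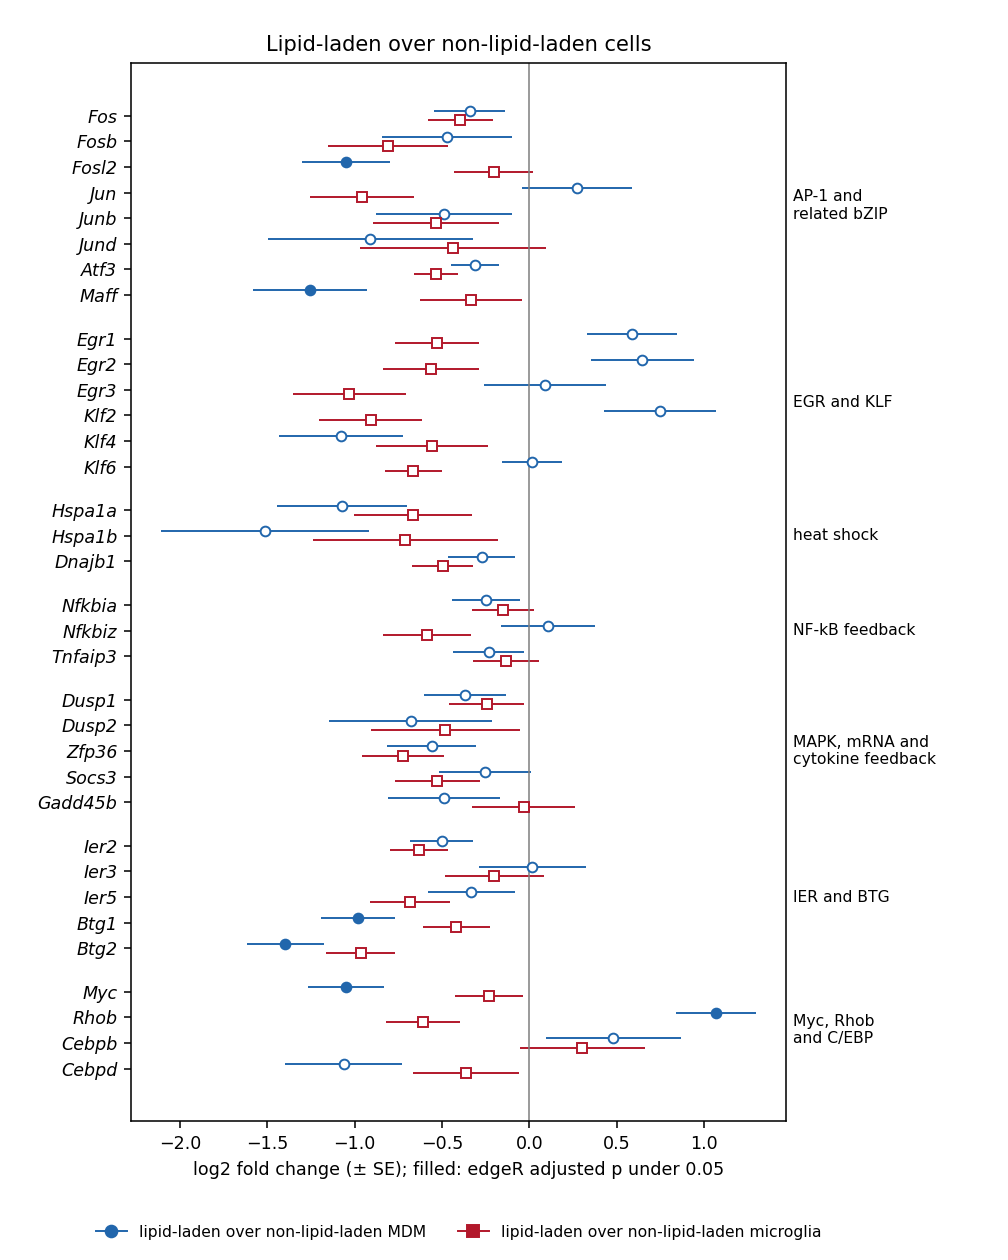
Log2 fold change ± SE of the 34 genes by role, lipid-laden over non-lipid-laden, in MDM (blue circles) and in microglia (red squares), with filled symbols for an edgeR adjusted p under 0.05. No microglial symbol is filled although 33 of 34 lie left of 0, and in MDM the filled symbols are Fosl2, Maff, Btg1, Btg2 and Myc to the left and Rhob to the right.

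Markers of other cell types moved with lipid load as well. The 5 microglial markers (P2ry12, Tmem119, Sall1, Gpr34 and Cx3cr1) summed to 2452 to 3668 CPM in lipid-laden MDM and 923 to 1390 in MDM, and all 5 were called higher. In lipid-laden microglia they summed to 2157 to 6318 CPM and in microglia to 4395 to 6422, with 0 of 5 called. The 8 dendritic cell markers summed to 154 to 185 CPM in lipid-laden MDM and 1048 to 2084 in MDM, with 6 of 8 called lower. The 7 T and NK cell markers summed to 58.0 to 116 CPM in lipid-laden MDM and 299 to 422 in MDM, with 1 of 7 lower. The 6 MDM markers summed to 1014 to 1327 CPM in lipid-laden MDM and 2631 to 3257 in MDM, with 3 of 6 lower. Glioma and progenitor markers summed to 59.7 to 118 CPM in lipid-laden MDM and 6.41 to 19.3 in MDM, with 4 of 6 higher. The 7 neutrophil markers summed to 169 to 585 CPM in lipid-laden MDM (median 234) and 110 to 164 in MDM. S100a9 and Retnlg were called higher of 6 tested, and Ly6g had 0 counts in every library. Both called genes were uneven over the 15 libraries. Retnlg had a mean of 32.2 CPM per kilobase and 432 in its highest library, and S100a9 had 4.99 and 46.2. Summed levels of 5 genes of lipid-handling macrophages (Plin2, Gpnmb, Spp1, Lpl and Fabp5) were 5424 to 8582 CPM in lipid-laden MDM and 2887 to 3983 in MDM, with 4 of 5 called higher, and 3944 to 8070 CPM in lipid-laden microglia and 2661 to 4517 in microglia. In microglia all 5 were higher with lipid load in each of the 4 number pairs, and 0 of 5 were called without the block and 2 of 5 with it, Fabp5 and Spp1 (adjusted p = 0.0117 and 0.0276 in edgeR). In lipid-laden microglia the dendritic cell markers summed to 6.33 to 18.7 CPM and in microglia to 21.7 to 34.9. All 8 of these log2 fold changes were negative, with a median of -1.94, 0 called without the block and Dpp4 alone called lower with it (edgeR adjusted p = 0.0406). The T and NK cell markers summed to 0 to 6.23 CPM in lipid-laden microglia and 0 to 9.09 in microglia. The neutrophil markers summed to 164 to 309 CPM in lipid-laden microglia and 229 to 327 in microglia, and none was called. Of these 7 markers Csf3r had the highest mean over all libraries, at 192 CPM, against 19.1 for Retnlg, the next highest. The part of these cells in the results on the 34 genes was not tested.

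Among the AP-1 members, Fos, whose protein pairs with JUN proteins, had 1025, 2132 and 1511 CPM in lipid-laden MDM of numbers 221, 224 and 718, and 1803, 2122, 2014 and 1946 CPM in MDM of numbers 221, 224, 431 and 718. In that order of numbers it had 1129, 1479, 1157 and 1244 CPM in lipid-laden microglia and 1402, 1945, 1369 and 1868 CPM in microglia. The microglial library was lower with lipid load in each number pair while the groups overlapped, and in MDM the pair of number 224 was level. The log2 fold changes of -0.34 ± 0.20 in MDM and -0.39 ± 0.19 in microglia did not pass (adjusted p = 0.345 and 0.544 in edgeR). Jun, the principal JUN protein of AP-1 (chr4:95049034-95052222, 1 exon), had 177, 409 and 477 CPM in lipid-laden MDM and 255, 230, 349 and 340 CPM in MDM. It had 189, 327, 279 and 317 CPM in lipid-laden microglia and 307, 730, 562 and 559 CPM in microglia. The microglial library was lower with lipid load in all 4 number pairs, though the microglial library of number 221 without lipid load lay within the lipid-laden range, and with the number as a block Jun was lower in lipid-laden microglia by -0.93 ± 0.19 (edgeR adjusted p = 0.0444), against 0.342 without the block. In MDM the lipid effect on Jun was 0.27 ± 0.32 (edgeR adjusted p = 0.685), with number 221 lower and numbers 224 and 718 higher.

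Junb, a JUN protein that often restrains c-Jun, had 514, 1664 and 1580 CPM in lipid-laden MDM and 1621, 1793, 1792 and 1823 CPM in MDM. It had 343, 1060, 881 and 1034 CPM in lipid-laden microglia and 695, 1605, 1131 and 1375 CPM in microglia. The MDM libraries lay close together except for the lipid-laden one of number 221, which was below all others of MDM. Atf3, a stress-induced bZIP factor (chr1:191170296-191218039, 5 exon blocks), had 678, 842 and 890 CPM in lipid-laden MDM and 927, 1001, 1086 and 969 CPM in MDM. It had 817, 922, 1044 and 942 CPM in lipid-laden microglia and 1178, 1497, 1214 and 1510 CPM in microglia. Neither cell type showed an overlap of its 2 groups for Atf3, and the difference in microglia was -0.54 ± 0.13 (edgeR adjusted p = 0.154, and 0.0214 with the number as a block). In MDM it was -0.31 ± 0.14 and did not pass (edgeR adjusted p = 0.186).

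Fosl2, which encodes the FOS-related protein FRA2 (chr5:32135801-32157842), had 144, 312 and 204 CPM in lipid-laden MDM and 378, 468, 538 and 436 CPM in MDM. It had 91.5, 102, 64.9 and 78.7 CPM in lipid-laden microglia and 66.6, 115, 105 and 102 CPM in microglia. The MDM groups did not overlap, and Fosl2 fell in lipid-laden MDM by 1.05 on the log2 scale (SE 0.25, edgeR adjusted p = 0.0165). That call was lost without the lipid-laden MDM library of number 221 or that of 718 (adjusted p up to 0.0779). Maff, a small MAF protein that partners other bZIP factors, had 14.7, 29.0 and 32.5 CPM in lipid-laden MDM and 40.2, 64.3, 75.6 and 62.7 CPM in MDM, again without overlap. Its change of -1.26 ± 0.32 (edgeR adjusted p = 0.0262) was lost when any 1 of 5 libraries was left out: lipid-laden MDM of number 221 or 224 and MDM of number 224, 431 or 718 (adjusted p up to 0.0977). In microglia the lipid effect was -0.20 ± 0.23 for Fosl2 and -0.33 ± 0.29 for Maff, and neither passed. Fosb ranged from 52.5 to 263 CPM and Jund from 1.43 to 6.13 CPM over all libraries, and neither was called by edgeR in any comparison.

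The 6 EGR and KLF transcription factors had a median log2 fold change with lipid load of 0.34 in MDM and of -0.61 in microglia, with 0 called in either without the block. With the block Egr1 was called higher and Klf4 lower in MDM, and Klf6 lower in microglia. Egr1, the serum-responsive zinc finger factor, had 677, 1211 and 1082 CPM in lipid-laden MDM and 561, 652, 700 and 719 CPM in MDM. It had 746, 1904, 1273 and 1258 CPM in lipid-laden microglia and 1390, 2278, 1829 and 1985 CPM in microglia. Each lipid-laden MDM library was above and each lipid-laden microglial library below its same-numbered partner. The log2 fold changes with lipid load were 0.59 ± 0.26 in MDM and -0.53 ± 0.24 in microglia (adjusted p = 0.184 and 0.524 in edgeR). With the number as a block the MDM difference passed and the microglial one did not (adjusted p = 0.0306 and 0.0837 in edgeR). Klf2, a factor that restrains inflammatory activation in myeloid and endothelial cells, had 32.6, 17.0 and 18.2 CPM in lipid-laden MDM and 10.1, 18.7, 11.8 and 13.0 CPM in MDM. It had 26.5, 43.4, 36.8 and 29.7 CPM in lipid-laden microglia and 37.1, 83.5, 66.1 and 69.3 CPM in microglia. Its microglial difference of -0.91 ± 0.29 and its MDM difference of 0.75 ± 0.32 did not pass (adjusted p = 0.349 and 0.171 in edgeR). The values of number 221 stood at the top of lipid-laden MDM and at the bottom of both microglial groups.

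Klf6, an injury-induced KLF factor (chr13:5861482-5870394, 5 exon blocks), had 882, 1053 and 813 CPM in lipid-laden MDM and 795, 1112, 768 and 952 CPM in MDM, which overlapped throughout. It had 1156, 891, 833 and 905 CPM in lipid-laden microglia and 1567, 1787, 1151 and 1490 CPM in microglia. The lipid-laden library of number 221 just reached the lowest microglial library, and the difference of -0.66 ± 0.16 had an edgeR adjusted p of 0.176 without and 0.0264 with the number as a block. Klf4, a factor of monocyte differentiation, had 63.5, 132 and 77.3 CPM in lipid-laden MDM and 161, 208, 235 and 164 CPM in MDM. These groups did not overlap, and the difference of -1.08 ± 0.35 passed only with the number as a block (edgeR adjusted p = 0.0749 without and 0.0176 with it). Egr2 and Egr3 with lipid load were at 0.64 ± 0.29 and 0.09 ± 0.35 in MDM and at -0.57 ± 0.28 and -1.03 ± 0.32 in microglia, and none of these passed.

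The heat shock members are the inducible HSP70 genes Hspa1a and Hspa1b and the HSP40 co-chaperone gene Dnajb1. Hspa1a, whose counts may include those of its copy, had 55.9, 152 and 131 CPM in lipid-laden MDM and 109, 218, 396 and 230 CPM in MDM. It had 93.6, 110, 113 and 143 CPM in lipid-laden microglia and 128, 210, 201 and 189 CPM in microglia. Number 221 was low in every group, and 431 was far above the rest of MDM. The log2 fold changes were -1.07 ± 0.37 in MDM and -0.67 ± 0.34 in microglia (adjusted p = 0.0898 and 0.573 in edgeR). With the number as a block the MDM difference passed (edgeR adjusted p = 0.0306). Hspa1b had 3.08 to 7.03 CPM in lipid-laden MDM, 5.36 to 34.9 in MDM, 5.87 to 8.03 in lipid-laden microglia and 5.48 to 14.6 in microglia, and it did not pass at -1.51 ± 0.59 and -0.71 ± 0.53. Dnajb1 had 273, 332 and 355 CPM in lipid-laden MDM and 260, 447, 448 and 393 CPM in MDM. It had 307, 398, 424 and 311 CPM in lipid-laden microglia and 429, 542, 498 and 564 CPM in microglia. The microglial groups came close without overlapping for Dnajb1, and the difference of -0.50 ± 0.17 did not pass (edgeR adjusted p = 0.379). None of the 3 was called in any comparison in the edgeR fit of all 15 libraries without the block, and Hspa1a in lipid-laden MDM over MDM passed at -0.98 without the libraries of number 221 (edgeR adjusted p = 0.0376).

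The 3 NF-κB feedback members had the median closest to 0 of the 7 role groups in both lipid comparisons, at -0.23 in MDM and -0.15 in microglia. Nfkbia encodes IκBα, which holds NF-κB in the cytoplasm, and had 805, 1266 and 1070 CPM in lipid-laden MDM and 894, 1430, 1271 and 1378 CPM in MDM. It had 894, 1384, 1084 and 1118 CPM in lipid-laden microglia and 1030, 1290, 1257 and 1395 CPM in microglia. Number 221 was lowest in each group and the groups overlapped, with lipid effects of -0.25 ± 0.19 in MDM and -0.15 ± 0.18 in microglia. Tnfaip3, which encodes the ubiquitin-editing enzyme A20, had 311, 492 and 352 CPM in lipid-laden MDM and 399, 542, 346 and 524 CPM in MDM. It had 413, 394, 384 and 450 CPM in lipid-laden microglia and 606, 399, 364 and 432 CPM in microglia, again overlapping. Nfkbiz, which encodes the nuclear cofactor IκBζ (chr16:55811375-55838899, 15 exon blocks), had 223, 464 and 446 CPM in lipid-laden MDM and 254, 406, 376 and 368 CPM in MDM. It had 332, 610, 503 and 411 CPM in lipid-laden microglia and 463, 818, 677 and 825 CPM in microglia. With the number as a block Nfkbiz was lower in lipid-laden microglia by -0.58 ± 0.12 (edgeR adjusted p = 0.0395), against 0.497 without the block, and in MDM it was at 0.11 ± 0.27 (edgeR adjusted p = 0.882).

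Median log2 fold changes with lipid load were -0.48 for the 8 AP-1 genes, -1.07 for the 3 heat shock genes and -0.23 for the 3 NF-κB genes in MDM, beside 0.04 for all genes. In microglia the medians were -0.49, -0.67 and -0.15 for the same groups, beside -0.02 for all genes. Calls without the block in MDM were 2 of 8 AP-1 genes, 0 of 3 heat shock genes and 0 of 3 NF-κB genes. With the block they were 2 of 8, 1 of 3 and 0 of 3. In microglia there were 0 without the block, and with it 2 of 8, 0 of 3 and 1 of 3. Every one of these calls was lower. Of all 14843 genes in MDM, 440 were lower and 773 higher without the block, and 621 and 908 with it. In microglia 0 of all genes were called without the block, and 59 were lower and 60 higher with it. With 3 genes in a group the median is that of a single gene, so the summed levels are given as well. The AP-1 sum was 2665 to 5607 CPM in lipid-laden MDM and 5212 to 6123 in MDM, and 2649 to 4080 CPM in lipid-laden microglia and 3750 to 6197 in microglia, overlapping in both cell types. The heat shock sum was 332 to 493 CPM in lipid-laden MDM and 374 to 878 in MDM, which overlapped, and 407 to 543 CPM in lipid-laden microglia and 562 to 766 in microglia, which did not. The NF-κB sum was 1340 to 2222 CPM in lipid-laden MDM and 1546 to 2378 in MDM, and 1640 to 2388 CPM in lipid-laden microglia and 2099 to 2652 in microglia, again overlapping in both. No test of one group against another was made.

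Of the feedback genes for MAP kinases, mRNA decay and cytokines, Zfp36 encodes tristetraprolin, which removes AU-rich mRNAs (chr7:28376784-28380253, 1 block of exons merged over its transcripts). Zfp36 had 455, 841 and 585 CPM in lipid-laden MDM and 811, 1127, 807 and 949 CPM in MDM. It had 345, 561, 301 and 383 CPM in lipid-laden microglia and 601, 855, 457 and 711 CPM in microglia. Each lipid-laden library was lower than its partner by number in both cell types, and number 224 was the highest of each group. The microglial difference was -0.72 ± 0.23 (edgeR adjusted p = 0.349), and -0.73 ± 0.10 with the number as a block (edgeR adjusted p = 0.00664). In MDM it was -0.56 ± 0.25 (edgeR adjusted p = 0.201, and 0.00174 with the number as a block). With the block the MDM call held when any 1 number was left out (edgeR adjusted p up to 0.0497). The microglial call held in 2 of these 4 fits. Dusp1, a phosphatase of p38 and JNK, had 1519, 2235 and 1531 CPM in lipid-laden MDM and 2071, 2633, 1644 and 2745 CPM in MDM. It had 1686, 1185, 974 and 1324 CPM in lipid-laden microglia and 1911, 1517, 1044 and 1654 CPM in microglia, lower with lipid load in all 7 pairs by differences that did not pass (-0.37 ± 0.24 and -0.24 ± 0.22). Dusp2, Socs3 and Gadd45b had log2 fold changes with lipid load between -0.68 and -0.03 in the 2 cell types, and none passed without the block. With the block Dusp2 passed in MDM (edgeR adjusted p = 0.0293), but in no fit with 1 number left out.

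Btg2 had the lowest adjusted p of the 34 in both lipid comparisons. It encodes an antiproliferative protein that recruits the CCR4-NOT deadenylase (chr1:134075170-134079120, 2 exon blocks). Btg2 had 380, 590 and 502 CPM in lipid-laden MDM and 1225, 1547, 1142 and 1247 CPM in MDM. It had 191, 374, 262 and 271 CPM in lipid-laden microglia and 481, 582, 438 and 642 CPM in microglia. No lipid-laden library reached the lowest library of the same cells without lipid load. Btg2 fell by 1.40 on the log2 scale in MDM (SE 0.22, edgeR adjusted p = 0.00105), a call that held when any 1 library was left out (adjusted p up to 0.00799). In microglia the difference was -0.96 ± 0.20 with an edgeR adjusted p of 0.0853, and 0.00533 with the number as a block.

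Its relative Btg1 (chr10:96617006-96622809) had 250, 292 and 199 CPM in lipid-laden MDM and 445, 612, 428 and 461 CPM in MDM. The groups stood apart, and Btg1 fell by 0.98 on the log2 scale (SE 0.21, edgeR adjusted p = 0.00952, lost without the lipid-laden MDM library of number 718 at 0.0627). In microglia it had 240, 217, 156 and 151 CPM with lipid load and 279, 280, 185 and 278 CPM without, at -0.42 ± 0.19 (edgeR adjusted p = 0.530). Ier2, an early nuclear protein, had 467, 672 and 618 CPM in lipid-laden MDM and 713, 824, 865 and 918 CPM in MDM. It had 398, 644, 507 and 481 CPM in lipid-laden microglia and 694, 926, 654 and 872 CPM in microglia. Neither pair of groups overlapped for Ier2, and the microglial difference of -0.63 ± 0.17 had an edgeR adjusted p of 0.212 without and 0.0196 with the number as a block. In MDM Ier2 passed with the block alone (edgeR adjusted p = 0.0135). Ier3 and Ier5 were not called in any comparison in the edgeR fit of all 15 libraries without the block, and Ier5 at -0.68 in MDM over microglia passed without the libraries of number 221 (edgeR adjusted p = 0.0403).

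Myc, the growth regulator, and Rhob, a small GTPase of endosomes and actin, were both called in MDM, in opposite directions. Myc had 71.3, 44.5 and 43.1 CPM in lipid-laden MDM and 82.9, 135, 128 and 92.6 CPM in MDM. It had 127, 108, 111 and 117 CPM in lipid-laden microglia and 126, 158, 113 and 147 CPM in microglia. The MDM groups did not overlap and Myc fell by 1.05 on the log2 scale (SE 0.22, edgeR adjusted p = 0.00702), while the microglial groups overlapped at -0.23 ± 0.19. Rhob (chr12:8497661-8500009, 1 exon) had 80.1, 59.8 and 75.6 CPM in lipid-laden MDM and 34.1, 28.8, 33.8 and 40.1 CPM in MDM. It had 99.7, 108, 75.6 and 60.5 CPM in lipid-laden microglia and 106, 183, 112 and 123 CPM in microglia. Rhob rose in lipid-laden MDM by 1.07 ± 0.23 (edgeR adjusted p = 0.00877), every library above every MDM library, and in microglia it was at -0.61 ± 0.21 (edgeR adjusted p = 0.376). Cebpb, a myeloid bZIP factor, had 8.03 to 16.1 CPM in lipid-laden MDM, 5.99 to 10.5 in MDM, 7.13 to 13.8 in lipid-laden microglia and 7.01 to 7.96 in microglia. The library of number 221 was the highest of both lipid-laden groups for Cebpb, and Cebpb was not called.

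**Figure D4:**
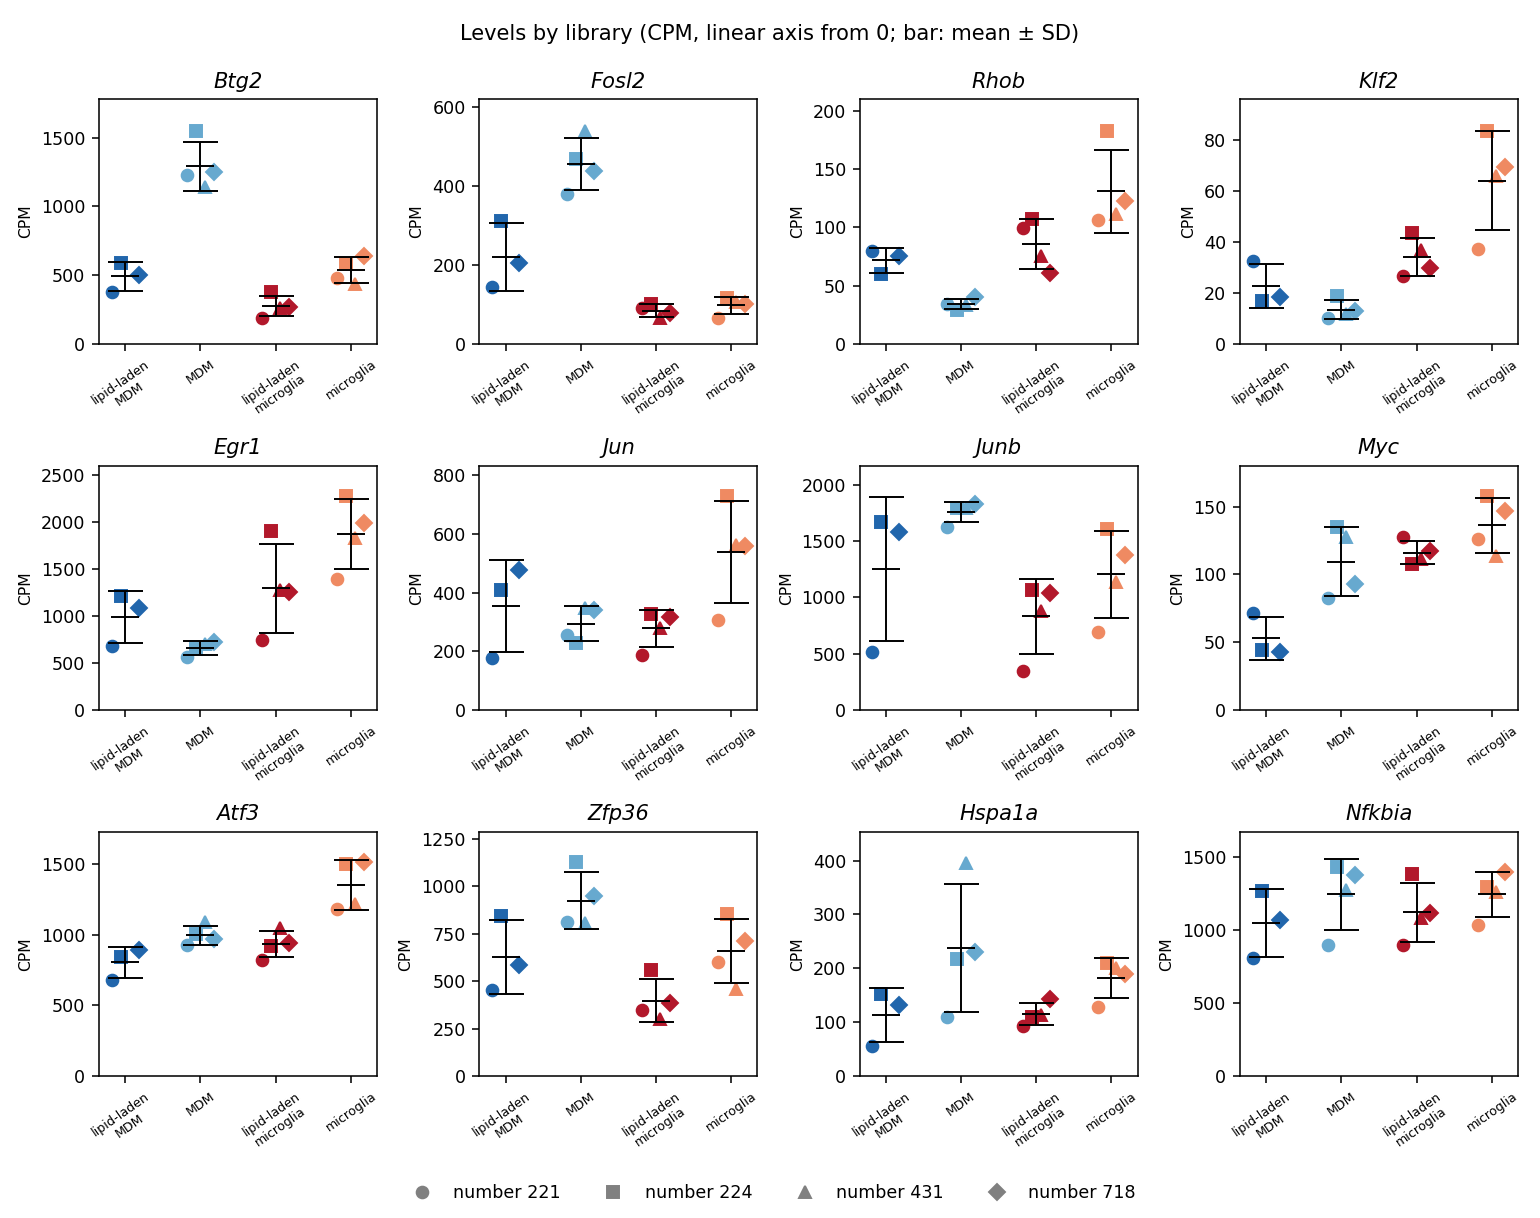
CPM (linear axis from 0) of 12 of the 34 genes in every library, with symbols for the 4 numbers and bars for mean ± SD, lipid-laden groups left of the same cells without lipid load. Btg2, Fosl2 and Rhob separate lipid-laden MDM from MDM without overlap, and number 221 is the lowest symbol of lipid-laden MDM for Junb at 514 and Hspa1a at 55.9.

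The difference with lipid load was also compared between the 2 cell types, as that in MDM minus that in microglia. Without the block Rhob alone of the 34 was called (1.68 ± 0.31, edgeR adjusted p = 0.00946, against 1.60% of all genes called higher and 0.930% lower). Rhob held when any 1 library was left out of that fit (adjusted p up to 0.0340). The 6 EGR and KLF genes had a median difference of 1.12 against 0.10 for all genes, with 5 of 6 positive and 0 of 6 called without the block. With the number as a block 5 of the 34 were called higher, against 2.82% of all genes, and 0 lower, against 1.61%. These were Egr1 at 1.12 ± 0.20, Rhob at 1.63 ± 0.32, Jun at 1.13 ± 0.29, Klf2 at 1.73 ± 0.44 and Nfkbiz at 0.67 ± 0.17 (adjusted p = 0.00734, 0.0129, 0.0418, 0.0427 and 0.0467 in edgeR), so 2 of the 6 EGR and KLF genes passed. With all libraries of 1 number left out under the block there were 0 to 3 calls, and without number 718 neither Egr1 (edgeR adjusted p = 0.143) nor any of the other 33 passed. Of all genes 58 to 441 were called in these fits, against 657 in the full block fit. At an unadjusted p under 0.05 without the block there were 5 of the 6, against 16.1% of all genes. Without the block Klf2 was nearest at 1.66 ± 0.43 (edgeR adjusted p = 0.0551). Without the libraries of number 221, Jun at 1.53 and Egr1 at 1.19 passed beside Rhob (adjusted p = 0.0150 and 0.0266 in edgeR). For Btg2, lower with lipid load in all 7 number pairs, the difference was -0.43 ± 0.29 (edgeR adjusted p = 0.496). The 5 microglial markers were all called higher in the same comparison without the block, with a median of 2.22 (edgeR adjusted p up to 0.0351). Their part in the calls on the 34 genes was not tested.

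The last question was how MDM differ from microglia. Without lipid load 14 of the 34 passed: 5 were higher in MDM against 10.7% of all genes, and 9 were lower against 12.5%. Higher in MDM were Fosl2, Btg2, Btg1, Klf4 and Maff, and lower were Rhob, Klf2, Egr1, Egr3, Klf6, Nfkbiz, Egr2, Atf3 and Jun. The median of all genes stood at -0.12 and that of the 34 at 0.11 on the log2 scale, and with library totals alone as scaling the median of all genes moved to -0.23, so differences near these sizes depend on the scaling. All 6 EGR and KLF genes were called, 5 lower and Klf4 higher, with a median of -1.26. Without the block none of the 3 heat shock genes was called, nor any of the 5 feedback genes. With the number as a block 4 of the 5 feedback genes were higher, and the heat shock gene Dnajb1 was lower (edgeR adjusted p = 0.0203). The ratio of feedback sums, MDM over microglia, was 1.21 to 1.54 over the 4 pairs. Dusp2 and Zfp36 passed under the block with any 1 number left out. Groups did not overlap for 5 genes above, against 13.8% of all genes, and 7 below, against 14.8%. Of the 34 log2 fold changes 14 were negative, against 56.1% of all genes, and 17 with library totals alone. Without the libraries of number 221 all 14 passed, and Junb, Dusp1 and Ier5 did as well. With the number as a block 10 of the 34 were higher and 11 lower, against 1865 higher and 2104 lower of all 14843 genes. Added were Dusp1, Dusp2, Gadd45b, Zfp36 and Junb as higher and Dnajb1 and Ier5 as lower. Leaving 1 number out under the block gave 15 to 19 calls, and 2252 to 3346 of all genes, against 3969 in the full block fit.

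Fosl2 had the lowest adjusted p of the 34, at 4 MDM libraries of 378 to 538 CPM against 4 microglial ones of 66.6 to 115 (2.23 ± 0.24, edgeR adjusted p = 7.84e-06). Rhob was at 28.8 to 40.1 CPM in MDM and 106 to 183 in microglia (-1.94 ± 0.22, edgeR adjusted p = 1.48e-05). Klf2 was at 10.1 to 18.7 CPM in MDM and 37.1 to 83.5 in microglia (-2.25 ± 0.31, edgeR adjusted p = 8.04e-05). These 3 stood apart with no library of one cell type in the range of the other. Btg2 was higher at 1.27 ± 0.20 and Btg1 at 0.93 ± 0.19 (adjusted p = 0.000261 and 0.00258 in edgeR), and Egr1 was lower at -1.51 ± 0.25 (edgeR adjusted p = 0.000377). Egr3, a relative of Egr1, had 28.1, 23.5, 15.4 and 20.2 CPM in MDM and 64.0, 101, 39.9 and 69.9 CPM in microglia (-1.66 ± 0.33, edgeR adjusted p = 0.00184). Egr2 was at -1.01 ± 0.28, Klf6 at -0.72 ± 0.16 and Nfkbiz at -0.99 ± 0.25, and all 3 passed.

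Of these 14 calls, 4 were lost when single libraries were left out. They were Jun at -0.88 ± 0.30 (adjusted p up to 0.141 when 1 library was left out, lost without lipid-laden microglia of number 224, 431 or 718, microglia of 224, 431 or 718, lipid-laden MDM of 224 or any MDM library), Maff at 0.86 ± 0.29 (up to 0.106, lost without microglia of 221, 224 or 431, lipid-laden MDM of 224, MDM of 224, 431 or 718, and with library totals alone or no filter), Atf3 at -0.44 ± 0.13 (up to 0.0719) and Klf4 at 1.08 ± 0.32 (up to 0.0574), all in edgeR. Atf3 was lost without microglia of number 224 or 718 or MDM of number 221, and Klf4 without MDM of number 224 or 431. Nfkbia at 0.00 ± 0.18 and Tnfaip3 at 0.01 ± 0.19 differed by less than their SE. All 8 dendritic cell markers were called higher in MDM (sums of 1048 to 2084 CPM in MDM and 21.7 to 34.9 in microglia), as were 6 of the 7 T and NK cell markers (299 to 422 CPM in MDM and 0 to 9.09 in microglia). All 6 glioma and progenitor markers were called lower (6.41 to 19.3 CPM in MDM and 89.2 to 361 in microglia). So were all 5 microglial markers (923 to 1390 CPM in MDM and 4395 to 6422 in microglia). The part of all these markers in these calls was not tested.

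**Figure D5:**
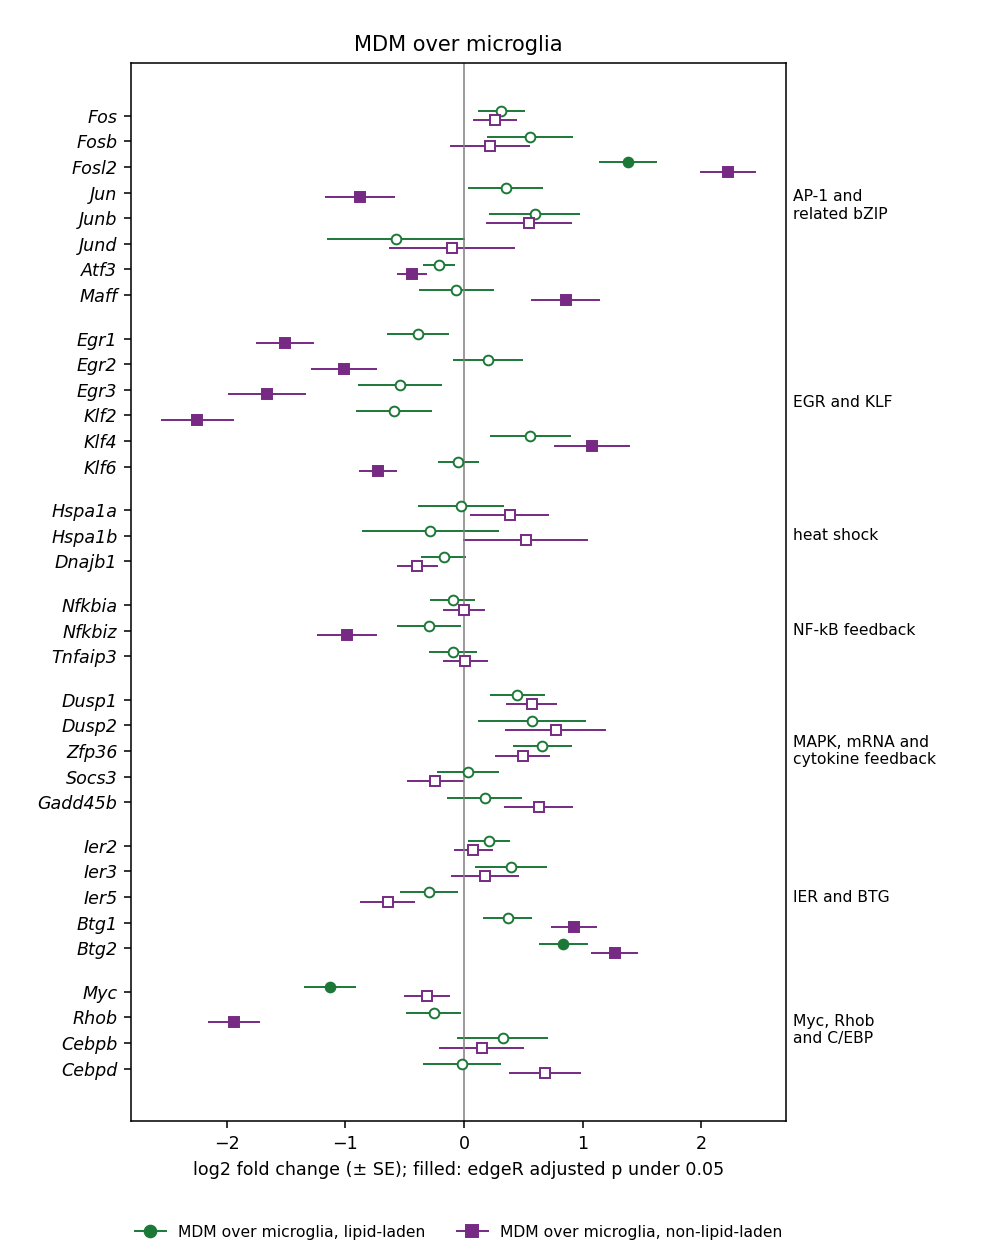
Log2 fold change ± SE of the 34 genes by role, MDM over microglia, for lipid-laden cells (green circles) and cells without lipid load (purple squares), with filled symbols for an edgeR adjusted p under 0.05. The purple squares show 14 calls from Klf2 at -2.25 to Fosl2 at 2.23, and the green circles show 3, Fosl2, Btg2 and Myc.

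Among lipid-laden cells 3 of the 34 passed: Fosl2 and Btg2 were higher in MDM (2 of 34, against 2.20% of all genes) and Myc was lower (1 of 34, against 0.579%). Fosl2 was at 1.38 ± 0.24 (edgeR adjusted p = 0.00514), and its 3 lipid-laden MDM libraries lay above all 4 of lipid-laden microglia. Myc was at -1.13 ± 0.22 (edgeR adjusted p = 0.00952), lost without the lipid-laden MDM library of number 224 or 718 (up to 0.0741). Btg2 was at 0.84 ± 0.21 (edgeR adjusted p = 0.0427), lost without lipid-laden MDM of 224 or 718, MDM of 221 or 718, lipid-laden microglia of 221, 431 or 718 or microglia of 224 (up to 0.226), and with library totals alone or only the groups compared, while with the number as a block it passed at 0.00555. With that block Zfp36 passed as well, at 0.54 ± 0.11 (edgeR adjusted p = 0.0174), which made 3 of 34 higher against 2.84% of all genes and 1 of 34 lower against 0.990%. With all libraries of 1 number left out under the block there were 0 to 5 calls, and 0 without number 718, where Btg2 was at 0.0896, Fosl2 at 0.0585, Myc at 0.207 and Zfp36 at 0.214 (edgeR adjusted p). Of all genes 148 to 438 were called in these fits, against 569 in the full block fit. Groups did not overlap for Fosl2 and Btg2 above (7.35% of all genes) and Myc below (5.17%). Without the libraries of number 221 Junb passed beside these 3. The EGR and KLF genes had a median of -0.22 here, with 0 of 6 called. Klf2 was at -0.59 ± 0.32, Egr1 at -0.39 ± 0.26 and Rhob at -0.26 ± 0.23. Dendritic cell markers summed to 154 to 185 CPM in lipid-laden MDM and 6.33 to 18.7 in lipid-laden microglia, with 6 of 8 called higher, and T and NK cell markers to 58.0 to 116 and 0 to 6.23 CPM in the same order, with 6 of 7 called higher. The 5 microglial markers summed to 2452 to 3668 CPM in lipid-laden MDM and 2157 to 6318 in lipid-laden microglia. Their median was -0.51 with 1 of 5 called lower, against -2.73 and 5 of 5 without lipid load. The part of all these markers in these calls was not tested.

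The comparison of lipid-laden MDM with MDM and that of MDM with microglia share the 4 MDM libraries, so their values are only set side by side, lipid-laden MDM over MDM first. Rhob had 1.07 and -1.94, Btg2 -1.40 and 1.27, Fosl2 -1.05 and 2.23, Btg1 -0.98 and 0.93, and Maff -1.26 and 0.86. Myc had -1.05 and -0.31, the same sign in both.

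Pathway partners outside the 34 genes were read from 7 further lists of 107 genes. In microglia none of these genes was called with lipid load in edgeR. With the number as a block, under which 0.397% of all genes were lower and 0.404% higher, 4 of the 107 were lower (Nr4a1, an orphan nuclear receptor of the immediate early class, Mcl1, a survival factor, Rel, an NF-κB subunit, and Il1b, an inflammatory cytokine) and 1 was higher (Cxcl1, a chemokine). In lipid-laden MDM against MDM, 6 of 22 NF-κB subunit and feedback genes were lower and Otud7b was higher, with a median of -0.58, where 2.96% of all genes were lower and 5.21% higher. Rel was at -1.37 ± 0.28, Traf1, an NF-κB target adaptor, at -3.29 ± 0.67 and Relb at -1.30 ± 0.28 (adjusted p = 0.00586, 0.00619 and 0.00964 in edgeR). Of 24 SRF and growth factor immediate early genes 4 were lower and 0 higher, led by Bhlhe40 at -1.78 ± 0.27 (edgeR adjusted p = 0.000828). Of 14 MAPK feedback genes 2 were lower, the ERK phosphatase gene Dusp5 at -1.79 ± 0.27 and Dusp16 at -1.55 ± 0.28, and Dusp6 was higher at 0.75 ± 0.22. Of 13 AP-1 and small MAF genes Crem alone passed, at -1.53 ± 0.24 (edgeR adjusted p = 0.00109), and of 18 heat shock and chaperone genes Dnaja1 alone, at -0.69 ± 0.18 (edgeR adjusted p = 0.0262). Of 6 STAT feedback genes Stat3 and Socs1 were lower. The 10 cytokines that microglia induce ex vivo split: Il1b was lower at -1.80 ± 0.16 (edgeR adjusted p = 3.76e-05), and Ccl2 at 1.41 ± 0.21, Ccl3 at 0.91 ± 0.18, Il1a and Ccl4 were higher.

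In MDM over microglia without lipid load the same lists held more calls, as did all genes, at 10.7% higher and 12.5% lower. Of the SRF and growth factor list 10 of 24 were higher and 3 lower, with Bhlhe40 at 3.24 ± 0.26, the nuclear receptor gene Nr4a2 at 3.49 ± 0.34 and the kinase gene Sik1 at 2.61 ± 0.40. Of the NF-κB list 10 of 22 were higher and 3 lower, with Traf1 at 5.15 ± 0.66, Tnfaip2 at 1.88 ± 0.25 and Nfkbie at 2.32 ± 0.36. Of the AP-1 and small MAF list 5 of 13 were higher and 1 lower, with Crem at 3.28 ± 0.23. MAPK feedback genes had 3 of 14 higher, with Dusp5 at 2.79 ± 0.26, and 5 lower, with Spry2 at -2.25 ± 0.46. STAT feedback genes had 4 of 6 higher and heat shock and chaperone genes 4 of 18 higher and 1 lower. Of the cytokines 3 of 10 were higher, with Il1b at 2.51 ± 0.15, and 6 were lower, with Ccl2 at -2.05 ± 0.20 and Il1a at -1.59 ± 0.16. Among lipid-laden cells the cAMP-responsive gene Crem at 2.08 ± 0.23, Nr4a2 at 2.77 ± 0.34 and Il1b at 1.40 ± 0.15 were higher in MDM, and the counts were 2 of 13, 4 of 24 and 1 of 10 in their lists and 0 in the MAPK, NF-κB, STAT and heat shock lists, against 2.20% of all genes higher and 0.579% lower. The effect of lipid load differed between the cell types, as the effect in MDM minus that in microglia, for Bhlhe40 at -2.14, Dusp5 at -1.80, Dusp6 at 1.21, Ccl2 at 1.76, Il1a at 1.35 and Ccl3 at 1.33 (adjusted p under 0.05 in edgeR without the block). These were among 1 of 24, 2 of 14 and 5 of 10 genes called in the SRF, MAPK and cytokine lists, against 1.60% of all genes higher and 0.930% lower.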

How the data were processed

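The deposited table held whole-number counts of reads per gene for 15 libraries, not normalized, each row with an Ensembl ID, a symbol and a locus, as the file header names them, made by the authors. Per the labels' protocols, total RNA of sorted cells was primed with oligo-dT and amplified by template switching, and RNA integrity numbers were above 8. Per the submitters' processing notes, reads were placed on mm10. Which aligner and counter were run, and with what strand option, is not given in the sources used here.

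Groups and numbers came from the titles, and 0 columns of the table were left unused. Counts of all 15 libraries were fitted together with TMM factors in edgeR 4.0.16 (R 4.3.3) and tested by quasi-likelihood F tests, 1 coefficient per group and no covariate. Genes were kept by filterByExpr with a minimum count of 10 and a minimum total of 15. A gene was called at a Benjamini-Hochberg adjusted p under 0.05 over all 14843 genes tested. The SE of a log2 fold change is its size over the square root of its F statistic. Alternatives used limma 3.58.1 and DESeq2 1.42.0, and the fit was tested on simulated data. Within a group, libraries differed by at least 18.6 chi-square units per degree of freedom, so each counted as its own sample. The labels read here name no molecular identifiers, so the counts are taken as reads, not molecules.

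Deviations from group means of same-numbered libraries correlated across genes at r = 0.124 to 0.256 for lipid-laden and other microglia (4 pairs) and 0.107 to 0.168 for lipid-laden MDM and lipid-laden microglia (3 pairs), all above 0.1. For lipid-laden MDM and MDM they reached only 0.0272 to 0.123, and for MDM and microglia 0.0152 to 0.150. The number was therefore read as a pairing for the first 2 comparisons. Libraries of different numbers correlated there at -0.200 to 0.0941 and -0.108 to 0.0291, below every same-numbered pair. In the other 2 the same-number correlations were positive in every pair but weaker. They overlapped those of different numbers, at -0.0767 to 0.0559 for lipid-laden MDM and MDM and -0.134 to 0.0296 for MDM and microglia. A pairing by number is not established in these 2 comparisons, so calls are given there without and with the block. The block is also given for the difference of the lipid effects, which draws on all 4 groups.

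The members, the role groups and the other lists were chosen with earlier results of these data known. One gene of the microglial marker list is not reported here and is left out of its sums and counts. Values in every library are given for members that passed with or without the block, at most the 6 with the smallest p per comparison, and for a fixed set of members where a result turned on them. Of each other list, up to 3 genes with the smallest p per comparison were named, and a gene beyond these was chosen after its values were seen. Exons, overlaps and transcripts came from GENCODE M21 on GRCm38, and promoters from RefSeq.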

Additional observations from a re-analysis of the deposited data

Results flagged for a closer look

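Of 102 gene and group combinations with 4 libraries, 2 had 1 library far from the other 3, and chance flags about 1 in 20 such groups. Btg1 in microglia without lipid load had 185 CPM in the library of number 431, against 278 to 280 CPM in the other 3. Junb in MDM without lipid load had 1621 CPM in the library of number 221, against 1792 to 1823 CPM in the other 3. The effect of lipid load on Rhob differed between the cell types, at 1.68 on the log2 scale as the effect in MDM minus that in microglia (SE 0.31, edgeR adjusted p = 0.00946), with all 3 MDM pairs higher and all 4 microglial pairs lower in lipid-laden cells.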

How the results depend on the processing

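Of the 34 genes, lipid-laden against other microglia gave 0 calls in the edgeR fit without a block, 4 with DESeq2, 7 with the replicate block, 9 with limma-voom and the block, and 15 with DESeq2 and the block. Leaving out 1 library gave 0 to 1 calls, and leaving out all libraries of 1 number under the block gave 0 to 4. Lipid-laden against other MDM gave 6 calls, 10 with DESeq2, 13 with the replicate block, 15 with limma-voom and the block, 19 with DESeq2 and the block, 4 to 7 without 1 library, and 4 to 11 without 1 number under the block. MDM against microglia gave 14 calls, 21 with the replicate block, 22 with DESeq2 and the block, 11 to 15 without 1 library and 15 to 19 without 1 number under the block. Lipid-laden MDM against lipid-laden microglia gave 3 calls, 4 with the replicate block, 5 with DESeq2 and the block, 1 to 3 without 1 library and 0 to 5 without 1 number under the block. The difference of the lipid effects gave 1 call, 2 with library totals alone as scaling, 3 without all libraries of number 221, 4 with DESeq2, 5 with the replicate block, 6 with limma-voom and the block, 11 with DESeq2 and the block, 1 to 3 without 1 library and 0 to 3 without 1 number under the block. The 5 under the block were Rhob, Egr1, Jun, Klf2 and Nfkbiz. The cause of these shifts was not tested. Over all genes tested, lipid-laden against other microglia gave 0 calls, 17 with no filter on low counts, 119 with the replicate block, 164 with DESeq2, 212 with limma-voom and the block and 602 with DESeq2 and the block. Lipid-laden against other MDM gave 1213, 1982 with DESeq2, and with the block 2089 in limma-voom and 2552 in DESeq2. Lipid-laden MDM against lipid-laden microglia gave 413, 176 with only the groups compared, 798 with DESeq2, and with the block 992 in limma-voom and 1204 in DESeq2. The difference of the lipid effects gave 375, 657 with the replicate block, 960 with DESeq2, and with the block 1025 in limma-voom and 1565 in DESeq2. Leaving out 1 library moved these all-gene counts to 0 to 64 in microglia (64 without the lipid-laden library of 224), 657 to 1383 in MDM (657 without the lipid-laden library of 718), 168 to 431 among lipid-laden cells (168 without lipid-laden MDM of 224) and 186 to 452 for the difference of effects (186 without lipid-laden MDM of 718). Shifts of over 1.5 times also followed without MDM of 224 in MDM, without lipid-laden MDM of 718 or lipid-laden microglia of 431 among lipid-laden cells, and without microglia or lipid-laden MDM of 224 for the difference of effects.

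No called gene changed sign under any alternative run. Of the comparisons of single genes under alternatives, 4801 kept their side of the threshold, 64 lost it and 196 gained it. All libraries of number 221 were left out, both HSP70 copies were summed, and limma-voom and DESeq2 were run with the block as alternatives chosen after seeing the data. In lipid-laden against other microglia the SE was 0.53 for Jund and Hspa1b and 0.36 for Cebpb, against 0.13 for Atf3, and what sets these errors, depth included, was not tested.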
